A study of Mus musculus with 10 samples.

Results

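Macrophages and microglia of the injured mouse optic nerve were compared with those of the injured retina, across genes. All cells of the injured nerve libraries 1 and 3 and of the injured retina pools 1+2 and 3+4 were taken, 994 of the 1168 cells in the table, of which 828 came from nerve and 166 from retina. The comparison used gene rows with at least 1 unique molecular identifier (UMI, a tag that marks each captured mRNA molecule once) in both tissues, 11502 rows in all. The animals of every group were wild-type mice of the 129S1/SvlmJ strain, of both sexes and 10 weeks old at collection. Injured nerves and retinas came from mice whose optic nerve had been crushed at 8 weeks of age, 2 weeks before collection. Uninjured nerve (libraries 2 and 4) and uninjured retina (libraries 5 and 6) received no treatment and enter only the comparison at the end. The strain label also carries the age P56, which is the age at crush and not at collection. The 4 injured retina samples are deposited as 2 pools of 2 samples each, and the animals within a pool cannot be separated. The labels do not say whether libraries are separate animals, so the p-values below measure only the spread between these libraries.

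Microglia are the resident phagocytes of nervous tissue, and macrophages of other origin live at its borders or enter from blood. The optic nerve carries the axons of retinal ganglion cells, whose cell bodies lie in the retina. A crush cuts these axons, so that phagocytes in the nerve meet axon and myelin debris while those in the retina surround dying neuron bodies. Phagocytes that clear lipid-rich debris are known to express genes for lipid transport, lysosomal digestion and the so-called disease-associated microglia state.

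The 4 libraries differed in size and depth. Nerve library 1 held 146 cells and 318715 UMIs, nerve library 3 held 682 cells and 5234954 UMIs, retina pool 1+2 held 109 cells and 1420930 UMIs, and retina pool 3+4 held 57 cells and 310892 UMIs. The median cell held 1078 and 2060.5 UMIs in the nerve libraries against 12989 and 3853 in the retina pools. In nerve the deepest 10% of cells supplied 45.5% and 42.1% of all UMIs, in retina 21.6% and 29.2%. The injured nerve libraries shared 2 cell barcodes, and no other pair of libraries shared any. Nerve and retina also did not fill the same gene rows. UMIs lay only in injured nerve for 3428 rows, among them the platelet factor gene Pf4 and the chemokine gene Ccl7, and only in injured retina for 1145. Of these rows, 88 and 115 reached 10 UMIs in both libraries of their tissue. Whether annotation, depth or the cells present left such rows empty in 1 tissue was not tested. A gene whose row is split or missing in 1 tissue can look changed, and among called genes 13.6% share exons with another gene on the same strand, against 8.53% of the genes not called.

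All cells in the table carry the authors' macrophage label, yet not all fitted it. Cells with T and NK cell markers (Cd3d, Cd3g, Cd3e and Skap1 lead their cluster) made up 22 of 109 cells in retina pool 1+2 (20.2%, exact 95% interval 13.1% to 28.9%) and 24 of 57 in pool 3+4 (42.1%, 29.1% to 55.9%). Nerve held 1 such cell among 682 in library 3 and 0 of 146 in library 1, which allows a share of up to 2.05% (the limit is set at 3 cells of the total wherever a class had 0). Oligodendrocyte-like cells (Mog, Opalin, Myrf and Ugt8a lead their cluster) were the reverse: 14 of 146 (9.59%) and 51 of 682 (7.48%) in nerve and none in retina, which allows up to 2.75% and 5.26%. Border macrophage-like cells (Lyve1, Cd163, F13a1, Mrc1) made up 5.48% and 4.69% of nerve cells, 1.83% of retina pool 1+2 (2 cells) and 0 of 57 cells in pool 3+4. That class depended on the clustering: at Leiden resolution 1.0 it kept 8 cells of nerve library 1, 4 of library 3 and none of retina, while 39 cells of library 3 and the 2 retina cells fell into an unnamed cluster with Plbd1, Napsa, Ciita and S100a4 among its leading genes. In each class both nerve libraries lay on 1 side of both retina pools, which is the most that 2 against 2 can show: the exact two-sided permutation p was 0.333 for each, the smallest this design allows. Cells with at least 5 of 14 endothelial markers numbered 4, all in nerve library 3. The cells outside these classes carried C1qa, a member of the microglia list, in all 4 libraries. It stood at 6602 and 8548 UMIs per 1000000 (CPM, over the compared rows) in nerve and 6532 and 6796 in retina. C1qa does not tell microglia from border macrophages here, as the border macrophage-like cluster of the whole series held 5873 CPM. Of nerve library 3, 176 cells fell into an unnamed cluster with Gpnmb, Ms4a7 and Lyz2 among its leading genes. In clustering, 84 cells of retina pool 1+2 and 33 of pool 3+4 fell into a cluster that held no nerve cell and was led by unnamed loci, so tissue and gene annotation cannot be told apart there. The intervals and limits cover counting error only.

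**Figure D1:**
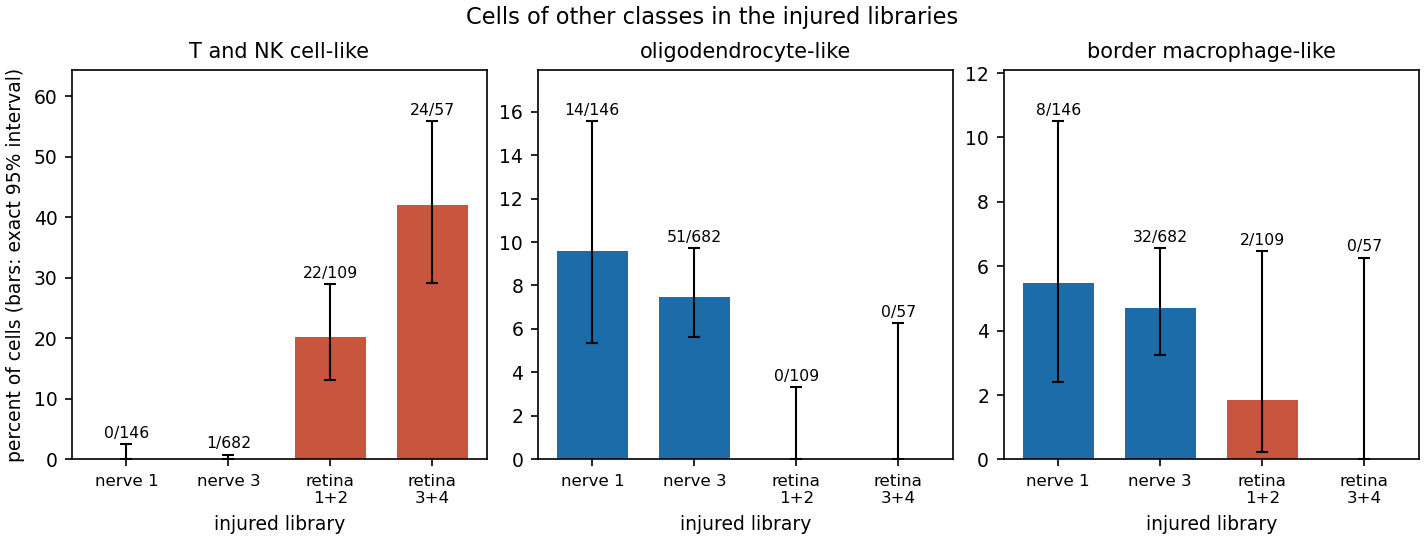
Share of cells in 3 classes other than microglia in each injured library, as percent of cells. Bars are shares, lines are exact 95% intervals, and the numbers are cells of the class over all cells. T and NK cell-like cells lie in retina (20.2% and 42.1%), oligodendrocyte-like cells in nerve (9.59% and 7.48%).

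Of the 7240 genes with enough UMIs to test, 536 (7.4%) differed between injured nerve and injured retina, 160 of them higher in nerve (2.21%) and 376 lower (5.19%). The test was limma-voom on UMIs summed over all cells of a library, with 2 libraries a tissue, and a gene was called at a Benjamini-Hochberg adjusted p under 0.05. Differences are log2 values, injured nerve minus injured retina, with the standard error (SE) of the fit. The median over all tested genes was 0.01. In CPM, both nerve libraries lay above both retina pools for 21.8% of the tested genes and below both for 31.0%, so such a separation is common. The nerve libraries agreed less with each other than the retina pools did: among 3801 genes with a mean log2 CPM of at least 5, 18.5% differed by over 2-fold between nerve libraries 3 and 1 and 5.08% between the retina pools. The number of calls rested on single libraries. Leaving out nerve library 1 gave 2708 of 8927 genes (30.3%), nerve library 3 446 of 5208 (8.56%), retina pool 1+2 116 of 5265 (2.2%) and retina pool 3+4 53 of 9046 (0.586%). By direction, the shares called higher and lower were 14.4% and 15.9% without nerve library 1, 6.13% and 2.44% without nerve library 3, 0.095% and 2.11% without retina pool 1+2 and 0.0553% and 0.531% without pool 3+4. On the mean ln value per library, which weights cells equally, 64 genes were called higher and 1338 lower. Leaving out the cells like T cells, oligodendrocytes or endothelium, here named the non-myeloid classes, gave 555 of 6618 genes (8.39%). Of the 536 genes, 420 were again called. The name is a shorthand. In the whole series the oligodendrocyte-like cluster held C1qa at 1523 CPM, against 12.4 in the T and NK cell-like cluster. Whether it includes phagocytes that carry myelin transcripts was not tested.

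The heat shock chaperones were lower in injured nerve than in injured retina, and Hspa1b had the lowest log2 difference of all 7240 tested genes. Of the 13 genes on this list, all tested, 12 were called lower and 0 higher in nerve, with a median of -3.93. Heat shock proteins fold or refold other proteins, and their genes are switched on by the transcription factor HSF1 when proteins are damaged. Hspa1b and Hspa1a, a pair of nearly identical genes for inducible Hsp70, led the list. Hspa1b stood at 3.20 and 21.6 CPM in nerve libraries 1 and 3 and at 5396 and 6349 in retina pools 1+2 and 3+4, a log2 difference of -7.96 (SE 0.37, adjusted p = 0.00021). Hspa1a stood at 44.8 and 85.7 CPM in nerve and at 7198 and 6878 in retina, a difference of -6.53 (SE 0.33, adjusted p = 0.00021). Every nerve value of this pair lay far below every retina value, although reads of such similar genes may have been split between them.

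The promoters of these genes are shown because HSF1 binds inverted repeats of the unit GAA, and the members moved together. The 250 bases before the annotated start of transcription are given from RefSeq (GRCm38.p6), 5' to 3' on the gene's strand, with matches to GAANNTTC or TTCNNGAA in capitals. Both patterns read the same on both strands. The windows are chr17:34959239-34959488 for Hspa1b and chr17:34972157-34972406 for Hspa1a, both on the minus strand, chr5:149636337-149636586 for Hsph1, also minus, and chr5:135887669-135887918 for Hspb1 on the plus strand.
Hspa1b: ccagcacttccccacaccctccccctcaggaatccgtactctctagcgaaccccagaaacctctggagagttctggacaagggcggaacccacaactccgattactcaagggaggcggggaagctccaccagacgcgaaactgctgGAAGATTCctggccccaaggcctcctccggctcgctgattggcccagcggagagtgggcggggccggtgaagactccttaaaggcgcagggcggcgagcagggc
Hspa1a: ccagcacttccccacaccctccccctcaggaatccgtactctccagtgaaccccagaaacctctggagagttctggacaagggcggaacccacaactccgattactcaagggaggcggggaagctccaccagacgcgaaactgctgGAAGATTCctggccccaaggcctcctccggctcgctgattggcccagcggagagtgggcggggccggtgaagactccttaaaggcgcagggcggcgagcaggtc
Hsph1: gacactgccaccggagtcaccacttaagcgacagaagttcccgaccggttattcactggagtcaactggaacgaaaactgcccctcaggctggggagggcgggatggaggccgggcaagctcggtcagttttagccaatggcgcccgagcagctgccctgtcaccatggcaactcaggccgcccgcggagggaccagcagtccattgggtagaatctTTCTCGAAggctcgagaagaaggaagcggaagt
Hspb1: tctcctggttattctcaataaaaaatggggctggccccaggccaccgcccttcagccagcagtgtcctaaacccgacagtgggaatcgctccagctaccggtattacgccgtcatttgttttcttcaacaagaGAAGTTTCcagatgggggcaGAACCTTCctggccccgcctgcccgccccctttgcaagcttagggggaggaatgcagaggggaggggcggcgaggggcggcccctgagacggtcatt
The Hspa1b and Hspa1a windows were identical at 247 of 250 positions. RefSeq promoters were found for 9 of the 13 genes, and at the first listed start 6 of the 9 held such a match, against 12.8% of all 32851 promoters in the table. No match was found for Bag3, Dnajb1 and Hspd1. A match describes the letters and is no measurement of binding.

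The co-chaperones moved with them. Hsph1, an Hsp110 that exchanges nucleotide on Hsp70, stood at 22.4 and 18.9 CPM in nerve and 1070.3 and 781 in retina (log2 difference -5.40, SE 0.33, adjusted p = 0.00047). Bag3, which routes Hsp70 clients to autophagy, stood at 28.8 and 18.9 against 613 and 791 (difference -4.86, SE 0.30). Dnajb1, an Hsp40 that delivers clients to Hsp70, stood at 25.6 and 46.9 against 1519 and 1159 (difference -4.88, SE 0.36). In all 3 genes both nerve libraries lay far below both retina pools. Hsp90aa1, the inducible Hsp90, stood at 445 and 228 CPM in nerve and 4988 and 4859 in retina (difference -3.93, SE 0.25), and the small heat shock gene Hspb1 at 16 and 23 against 394 and 594 (difference -4.19, SE 0.34). The mitochondrial chaperonins Hspd1 (-2.68) and Hspe1 (-1.95), Dnaja1 (-2.41), the constitutive Hspa8 (-1.53) and Hsp90ab1 (-1.30) differed less and were called too. Cryab, a small chaperone abundant in oligodendrocytes, was the 1 exception, at 80.0 and 22.6 CPM in nerve and 5.03 and 3.28 in retina, and was not called (adjusted p = 0.12). By edgeR, which called 431 of the 7240 genes (5.95%), 12 members were lower and Cryab was higher.

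The chaperone genes were high in retina in T-like cells as well as in the other cells. Summed over the list, the T and NK cell-like cells held 23469 and 22358 CPM in retina pools 1+2 and 3+4, and the remaining retina cells outside the 4 classes 34693 and 33289.5. The same sum in nerve was 3834 and 3679 CPM in the remaining cells, and 4265 and 5614 in border macrophage-like cells. Both retina cell populations thus lay above every nerve population. Over all cells the sum was 3849.8 and 3835 CPM in injured nerve and 33649 and 31641 in injured retina, while the 4 uninjured libraries lay between 7709.7 and 9122. The count of 12 lower genes was the same without the non-myeloid classes and with each cell thinned to 1000 UMIs (12 members tested, against 115 of 1392 genes called in all, 8.26%, 5.75% lower), and on mean ln values (median -1.44), and fell to 8 without retina pool 1+2 and to 9 without pool 3+4. Thinning left out every cell with fewer than 1000 UMIs, 67 in nerve library 1, 201 in nerve library 3 and 0 in either injured retina pool. How the tissues were dissociated is not given in the sources used here, and its part in the result was not tested.

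**Figure D2:**
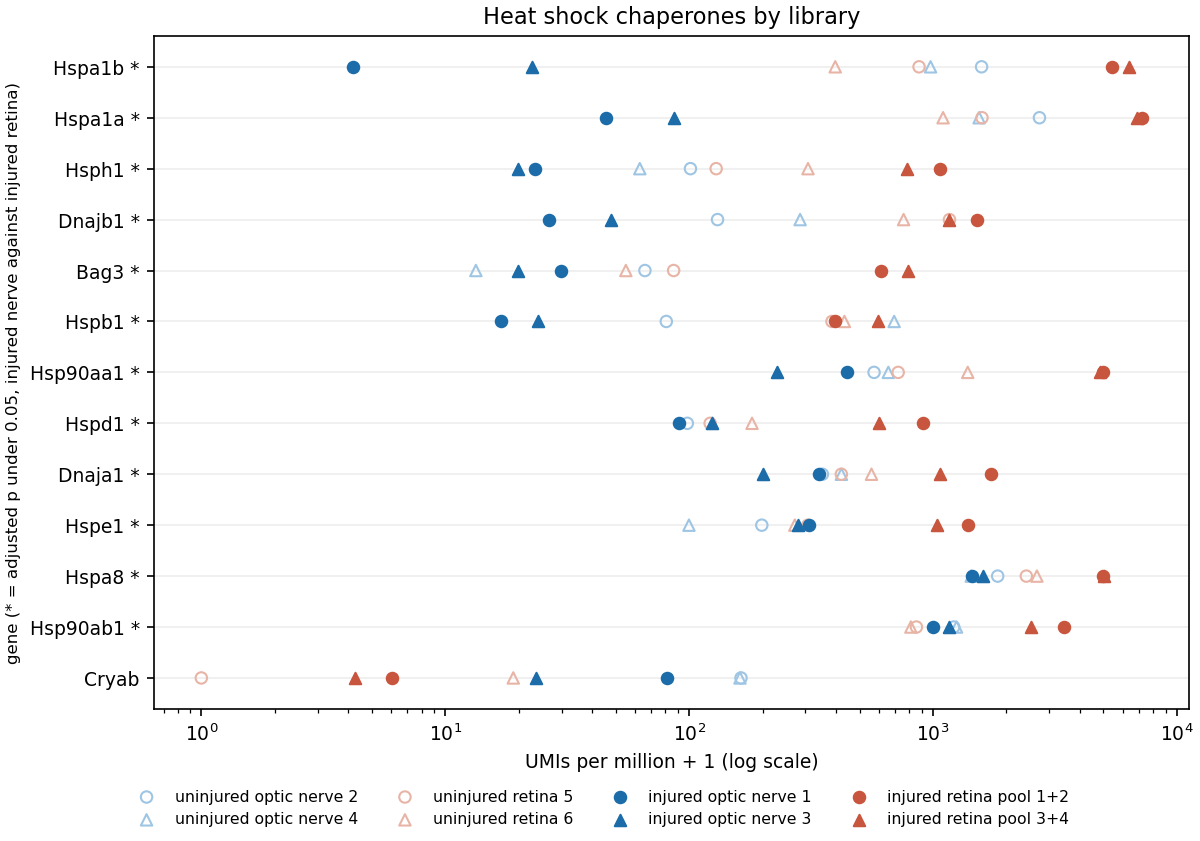
Heat shock chaperones in every library, as UMIs per 1000000 plus 1 on a log axis, 1 row a gene. Filled markers are injured and open markers uninjured libraries, blue is optic nerve and red is retina. For 12 of 13 genes both injured retina pools lie above both injured nerve libraries, and Cryab is the exception.

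Immediate early genes, transcription factors and regulators that cells switch on within minutes of a stimulus, were in part lower in nerve. Of 22 tested members, 6 were called lower and 0 higher, with a median of -0.63. Egr1 stood at 320.0 and 238 CPM in nerve and 1598 and 1343 in retina (log2 difference -2.34, SE 0.23, adjusted p = 0.0041). Jun, a subunit of the AP-1 factor, stood at 618 and 749 against 2525 and 3848 (difference -1.93, SE 0.27, adjusted p = 0.011). The Krüppel-like factors Klf4 (-2.07), Klf2 (-1.90) and Klf6 (-1.71) and the stress factor Atf3 (-1.16) were the other called members. The classical partners Fos (-0.04, adjusted p = 0.96) and Junb (-0.07, adjusted p = 0.86) were not called. Fos overlapped between the tissues, at 704 and 1802 CPM in nerve and 1368 and 1865 in retina. Uninjured retina, not part of this test, held more Jun than any injured library (9180.4 and 10051 CPM). Without retina pool 1+2 the count fell to 2, and without pool 3+4 to 1.

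Genes of the disease-associated microglia state were higher in injured nerve. Of 25 genes on the list 23 were tested, 13 were called higher and 0 lower, and the median was 1.99. The list sums to 83613 and 164122 CPM in nerve libraries 1 and 3 and to 33466 and 23444 in the retina pools. Lpl, the lipoprotein lipase, stood at 451 and 962 CPM in nerve and 66.8 and 32.8 in retina (log2 difference 3.93, SE 0.52, adjusted p = 0.011). Igf1, an insulin-like growth factor, stood at 243 and 560.0 against 24.4 and 16.4 (difference 4.27, SE 0.61, adjusted p = 0.013). In both genes the lower nerve library exceeded the higher retina pool by a larger factor than the nerve libraries differed by. Lyz2, the lysozyme of myeloid cells, stood at 4569.8 and 15269 CPM in nerve and 548 and 345 in retina (difference 4.74, SE 0.69, adjusted p = 0.014). Cd9, a tetraspanin of the cell surface, stood at 1907 and 2426 against 675 and 575 (difference 1.99, SE 0.27, adjusted p = 0.011). The lipid-sensing receptor Trem2 stood at 1414 and 2362 CPM in nerve and 699.7 and 716 in retina (difference 1.66, SE 0.34, adjusted p = 0.030), and its signalling partner Tyrobp differed by 1.71 (adjusted p = 0.037). Itgax, which encodes CD11c, differed by 1.88 (adjusted p = 0.022).

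The strength of this state was not alike in the nerve libraries. Of the 23 tested members, 11 were over 2-fold higher in nerve library 3 than in library 1, and 1 was over 2-fold lower. Spp1, which encodes osteopontin, stood at 883 CPM in library 1, close to the 585 and 804 of the retina pools, and at 14028 in library 3, and it was not called (adjusted p = 0.14). Gpnmb, a glycoprotein of lysosome-loaded macrophages, stood at 60.8 and 1376 CPM in nerve and at 15.8 and 0 in retina (adjusted p = 0.28). These 2 genes were chosen after their values were seen. The number of members called higher was 22 without nerve library 1, 15 without nerve library 3, 3 without retina pool 1+2 and 1 without pool 3+4. In these last settings 5 genes in all were called higher in nerve (0.095% and 0.0553% of those tested). With thinned cells 6 of 20 members were called higher (2.51% of all tested), and on mean ln values 9 were, with a median of 0.60.

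**Figure D3:**
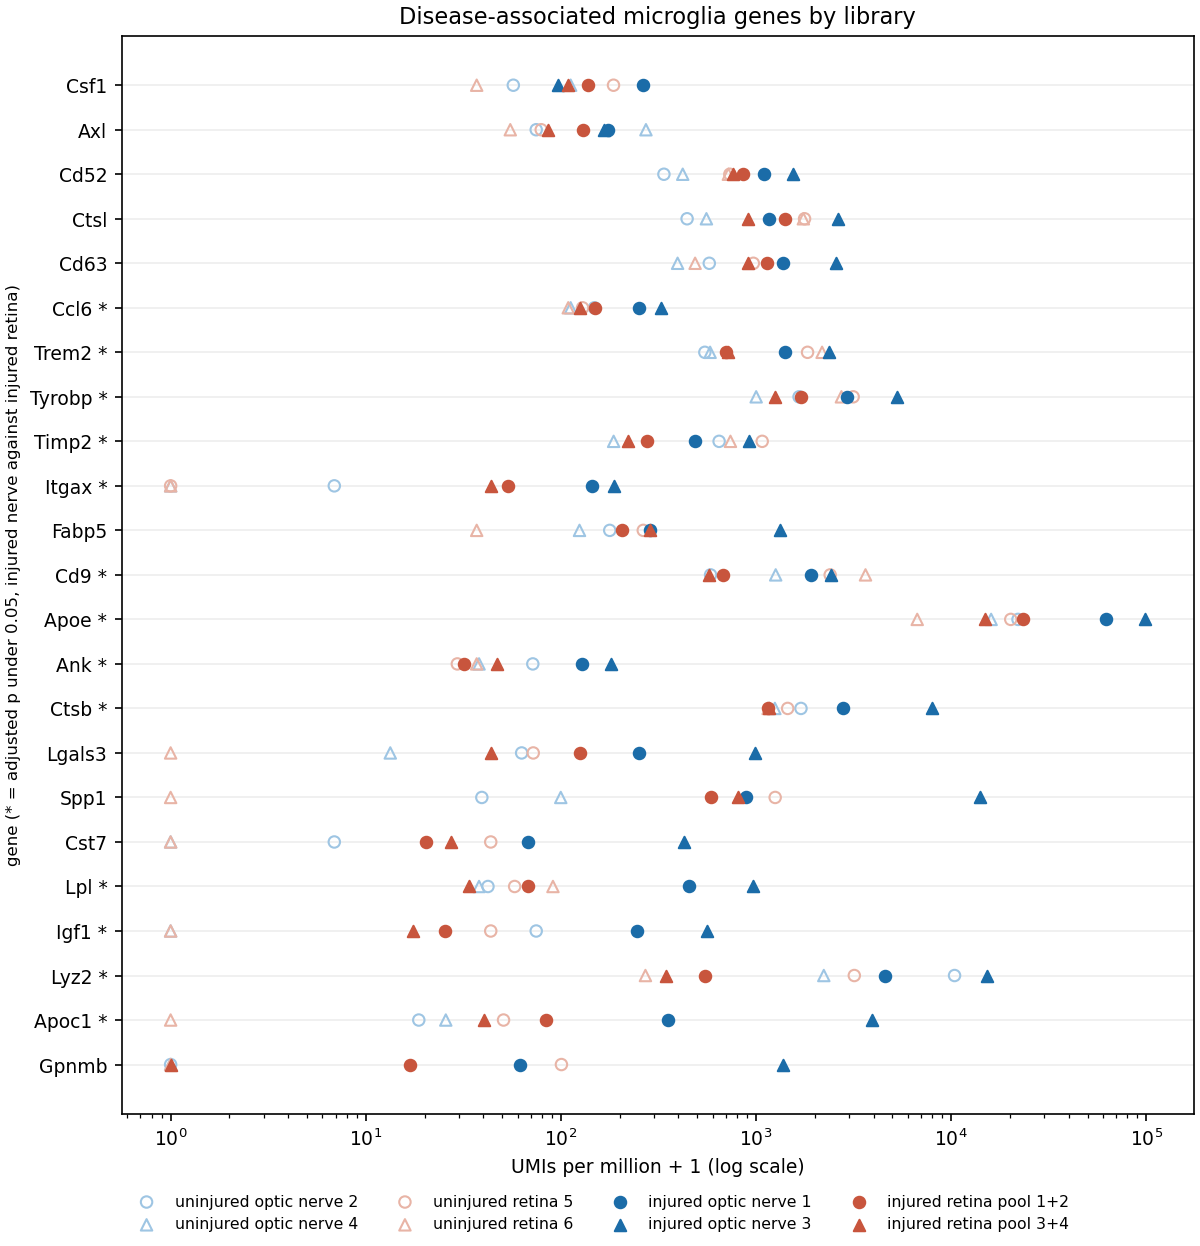
Tested genes of the disease-associated microglia list in every library, as UMIs per 1000000 plus 1 on a log axis (a value at 1 is 0 UMIs). Filled markers are injured and open markers uninjured libraries, blue is optic nerve and red is retina. Nerve library 3 (filled blue triangles) is the highest of the 4 injured libraries for most genes, and for Spp1 nerve library 1 lies beside the retina pools.

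Genes of lipid transport and storage went the same way, on a list that shares members with the former. Of 12 tested, 5 were called higher and 0 lower, with a median of 2.00. With thinned cells 1 of 7 tested was called higher, with a median of 2.42. Apoe, the main lipid carrier of the nervous system, stood at 62332 and 98533 CPM in nerve and 23402 and 14934 in retina (log2 difference 2.12, SE 0.33, adjusted p = 0.016). Plin2, a coat protein of lipid droplets, stood at 214 and 503 against 56.7 and 65.7 (difference 2.75, SE 0.50, adjusted p = 0.024). Apoc1, another apolipoprotein, stood at 352 and 3950.0 CPM in nerve and 83.3 and 39.4 in retina (difference 4.98, SE 1.19, adjusted p = 0.048), and was not called without the non-myeloid classes (adjusted p = 0.054). The cholesterol exporters Abca1 (1.49, adjusted p = 0.068) and Abcg1 (1.55, adjusted p = 0.075) were not called. Pltp, a phospholipid transfer protein, had 32 and 1453 UMIs in nerve and 0 and 1 in retina (adjusted p = 0.048). Without retina pool 1+2 the list had 1 gene called higher, without pool 3+4 0.

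Lysosomal enzymes were higher in nerve as well. Of 11 cathepsins and cystatins tested (proteases of the lysosome and their inhibitors), 4 were called higher and 0 lower, with a median of 0.94. Ctsd stood at 6061 and 14947 CPM in nerve and 2423 and 2177 in retina (log2 difference 2.45, SE 0.48, adjusted p = 0.028). Ctsb stood at 2791 and 8007 against 1157 and 1169 (difference 2.49, SE 0.54, adjusted p = 0.037). Ctsz (1.73) and Ctsa (1.87) were also called, while Ctss, at 5799 and 7144 CPM in nerve and 7472 and 8024 in retina, was not (adjusted p = 0.93). Among 19 tested lysosomal membrane proteins and hydrolases, 5 were called higher and 1 lower, with a median of 1.09. Hexa, a subunit of the enzyme that degrades GM2 ganglioside, stood at 723 and 1405 CPM in nerve and 127 and 108 in retina (difference 3.42, SE 0.42, adjusted p = 0.0081). The membrane proteins Lamp1 (1.71), Lamp2 (1.09) and Cd68 (1.85) were called higher. Atp6v0c, a proton pump subunit, was the 1 called lower and is taken up below. Without retina pool 1+2 none of the cathepsins and 1 of the lysosomal genes was called higher, without pool 3+4 none of either list.

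Inflammatory ligands split by gene. Il1b, which encodes interleukin-1 beta, stood at 3037 and 951 CPM in nerve and 315 and 256 in retina (log2 difference 2.42, SE 0.47, adjusted p = 0.028), and was not called with border macrophage-like cells and the non-myeloid classes left out (2.04, adjusted p = 0.066). Tgfb1, a cytokine that microglia need for their identity, stood at 326 and 330.0 against 146 and 118 (difference 1.45, SE 0.26, adjusted p = 0.024). With Tnfsf9, the 4-1BB ligand (2.32, SE 0.36, adjusted p = 0.016), and Igf1, 4 of 11 tested cytokines were called higher and 0 lower (median 0.34). With thinned cells 0 of 7 tested cytokines were called (median 1.29). Tnf (-0.20, adjusted p = 0.82) and Il1a (-0.10, adjusted p = 0.92) were not called and overlapped between tissues. Cd14, a co-receptor for bacterial lipopolysaccharide, stood at 3722 and 1722 CPM in nerve and 675 and 617 in retina (difference 1.91, SE 0.32, adjusted p = 0.020), the 1 gene called among 8 of the Toll-like receptor list (median 0.28).

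Of 7 tested CC chemokines, 3 were called lower in nerve and 1 higher (median -1.91). Ccl3 stood at 1053 and 268 CPM in nerve and 2021 and 1924 in retina (log2 difference -2.07, SE 0.45, adjusted p = 0.038), and Ccl4 at 2218 and 526 against 3352 and 3569 (difference -1.91, SE 0.46, adjusted p = 0.048). These genes encode macrophage inflammatory proteins, and in both nerve library 1 lay nearer to retina than library 3 did. Ccl5, a ligand made by T cells among others, was called lower (-2.14, adjusted p = 0.032), but differed by -0.35 (adjusted p = 0.44) once the non-myeloid classes were left out. Ccl4 missed the threshold there too (adjusted p = 0.050), and without those classes the list had 1 gene called lower and a median of -0.35. Ccl6 was called higher (1.24, adjusted p = 0.049). By edgeR neither Ccl3 (adjusted p = 0.087), Ccl4 (0.14) nor Ccl6 (0.099) was called. Cxcl14 was the 1 gene called among 6 CXC chemokines (median 2.43), at 397 and 1358 CPM in nerve and 136 and 59.1 in retina (difference 3.38, SE 0.68, adjusted p = 0.030). With thinned cells 0 of 6 tested CC chemokines (median -1.70) and 0 of 4 CXC chemokines (median 1.17) were called. With retina pool 1+2 left out, 1 CC chemokine and 0 cytokines were called, and without pool 3+4 0 and 1.

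Genes of MHC class II, which present antigen to helper T cells, were in part lower in nerve. Of 9 tested members 3 were called lower and 0 higher, with a median of -1.03. Cd74, the invariant chain, stood at 3769.8 and 2635 CPM in nerve and 6883 and 10184 in retina (log2 difference -1.29, SE 0.21, adjusted p = 0.018). H2-Aa, an alpha chain, stood at 851 and 661 against 1823 and 3851 (difference -1.63, SE 0.32, adjusted p = 0.030). H2-Oa was the third called member (-2.53, adjusted p = 0.021), and H2-Ab1 (-1.03, adjusted p = 0.093) and H2-Eb1 (-1.13, adjusted p = 0.11) were not called. The result was weaker in other settings. Cells thinned to 1000 UMIs gave 1 of 7 tested members called lower, with a median of -0.27. A fit of all 8 libraries gave 1 of 8 called lower, and neither Cd74 nor H2-Aa was called there. Levels differed between cell classes. In nerve library 3 the list summed to 83747 CPM in the 32 cells of the border macrophage-like class, most of which leave it at the finer clustering. The 594 cells outside the 4 classes held 9149.5 CPM there, but more of the UMIs (43643 against 20197). In nerve library 1 the border macrophage-like cells held 21615 CPM and the cells outside the classes 12419. In the retina pools the cells outside the classes held 21419 and 34747. The T-like cells of retina held 299 and 65.3 CPM. With border macrophage-like cells also left out, 5 of 8 members were called lower and the median was -2.66 (of all 6447 genes tested there 690 were called, 10.7%, with 3.1% higher and 7.6% lower). Without retina pool 1+2 4 members were called lower, and without pool 3+4 0. Of 12 tested genes of MHC class I, none was called (median -0.07), while without nerve library 1 2 were higher and 5 lower.

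Genes of resting, homeostatic microglia were called in both directions. Of 20 tested, 3 were called higher and 1 lower in nerve, with a median of -0.37. Bin1, which bends membranes, stood at 390.4 and 278 CPM in nerve and 108 and 128 in retina (log2 difference 1.57, SE 0.25, adjusted p = 0.018). Olfml3, a secreted microglial protein, stood at 163 and 172 against 73.3 and 49.2 (difference 1.51, SE 0.31, adjusted p = 0.031). Rhob, a small GTPase, was lower in nerve, at 298 and 241 CPM against 1192 and 1215 (difference -2.06, SE 0.22, adjusted p = 0.0051). The purine receptor P2ry12, at 179 and 46.9 CPM in nerve and 265 and 351 in retina, differed by -1.80 (adjusted p = 0.065) and was not called. Neither were Tmem119 (-1.05, adjusted p = 0.12) and the fractalkine receptor Cx3cr1 (-0.46, adjusted p = 0.26). The list had 6 members called higher and 9 lower without nerve library 1, and 0 and 0 without retina pool 3+4. In nerve library 3 P2ry12 and Tmem119 were at their lowest of the 4 injured libraries. No member of the complement list was called (10 tested, median 0.47), the C1q subunit genes C1qa (0.52), C1qb (0.66) and C1qc (0.70) among them, while without nerve library 1 4 of 12 were called higher.

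Other genes stood among those with the smallest adjusted p on the higher side. Dab2, an adaptor of clathrin-mediated uptake, stood at 195 and 196 CPM in nerve and 7.18 and 26.3 in retina (log2 difference 4.57, SE 0.45, adjusted p = 0.0038). Emp1, an epithelial membrane protein, stood at 163 and 147 against 18.0 and 23 (difference 3.12, SE 0.33, adjusted p = 0.0051). Gas6, the bridge between dying cells and the receptors Axl and Mertk, stood at 224 and 212 against 42.4 and 26.3 (difference 2.61, SE 0.31, adjusted p = 0.0077). The nerve libraries agreed closely in these 3 genes. Dab2 and Gas6 were concentrated in few cells: in nerve library 1 the border macrophage-like cells held 1092 CPM of Dab2 and 1071 of Gas6, and the cells outside the 4 classes 25.9 and 60.4. With border macrophage-like cells also left out, Dab2 differed by 3.63 (adjusted p = 0.066) and Gas6 by 1.89 (adjusted p = 0.100). Dcstamp, a protein of macrophage fusion (2.37), Ctnnb1, which encodes beta-catenin (1.83), and Bcl2a1d, an anti-apoptotic gene with close paralogs between which reads may be split (1.92), completed the group. Without retina pool 1+2, 9 of the 24 genes with the smallest adjusted p lost the call, and without pool 3+4 8 did, all of them genes higher in nerve.

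On the lower side, Id2, an inhibitor of basic helix-loop-helix factors, stood at 240.0 and 229 CPM in nerve and 1447 and 1464 in retina (log2 difference -2.50, SE 0.22, adjusted p = 0.0022). Atp6v0c stood at 9.60 and 11.4 against 569.6 and 538 (difference -5.39, SE 0.31). Nme2, a nucleoside diphosphate kinase (-4.98), and Gng10, a G protein subunit (-5.31), behaved alike. Atp6v0c stood at 2.95 and 0 CPM in uninjured nerve and 21.3 and 0 in uninjured retina, and Gng10 reached 54.0 CPM in uninjured retina, so that of the 4 groups injured retina alone was high. Nme2 and Gng10 share exons with a neighbouring gene, and a difference in gene annotation between the deposited tissues cannot be told apart from a difference in the cells. Without nerve library 3, Atp6v0c (adjusted p = 0.066) and Gng10 (adjusted p = 0.082) were not called.

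Ribosomal protein genes were lower in nerve as a group of small differences. Of 60 tested, 15 were called lower and 0 higher, the median was -0.44, and both nerve libraries lay below both retina pools for 56 (31.0% of all tested genes did). The list summed to 138662 and 118826 CPM in nerve and 197379 and 193228 in retina. Rpl23a, which shares exons with another gene, stood at 416 and 327 CPM against 2496 and 2150.3 (difference -2.57, SE 0.22, adjusted p = 0.0021). T-like cells of retina held more ribosomal transcript (269997 and 228785 CPM) than the other retina cells (191439 and 186914), and without the 3 non-myeloid classes 14 genes were called lower. Without retina pool 1+2 3 and without pool 3+4 2 were called. The nuclear genes of the respiratory chain showed no called member among 29 (median 0.58), but 22 of them were called higher without nerve library 1, and without library 3 the median was 0.07. Of 13 mitochondrially encoded genes 4 were called higher, led by mt-Nd4l (1.81, adjusted p = 0.0098), which shares bases with a neighbouring gene. That count was 9 without nerve library 1, 11 without library 3 and 0 with either retina pool left out.

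The other programs gave few calls. Among S100 proteins, annexins and vimentin, 3 of 11 were called higher and 1 lower (median 1.94). Vim, an intermediate filament, stood at 304 and 814 CPM in nerve and 101 and 36.1 in retina (log2 difference 3.16, SE 0.63, adjusted p = 0.030), and Anxa5 (2.87) and Anxa3 (2.19) were called with it. S100a10 was called lower (-1.71, adjusted p = 0.028) and differed by -0.20 (adjusted p = 0.72) without the non-myeloid classes. Actin-binding proteins and thymosins had 3 of 14 called higher (Gsn, Capg and Tmsb4x), glycolysis 2 of 13 (Aldoa and Eno1), uptake of apoptotic cells and lipid 2 of 14 (Gas6 and Trem2), matrix remodelling 2 of 10 (Timp2 and Plaur) and iron handling 1 of 9 (Trf, which oligodendrocytes also express). The oxidative stress list had Prdx1 called higher and Ddit4 and Sod1 lower among 16, and the cell cycle list Stmn1 higher and Pcna lower among 9. Of the remaining lists, interferon response (Ifi204, of 12), Fc gamma receptors (Fcgr4, of 6) and lineage transcription factors (Klf4, of 15) had 1 gene called, each lower in nerve. The 2 nuclear noncoding RNAs were not called. These counts rested on single libraries as well: without nerve library 1 10 actin and 11 glycolysis genes were called higher, and with either retina pool left out none was.

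**Figure D4:**
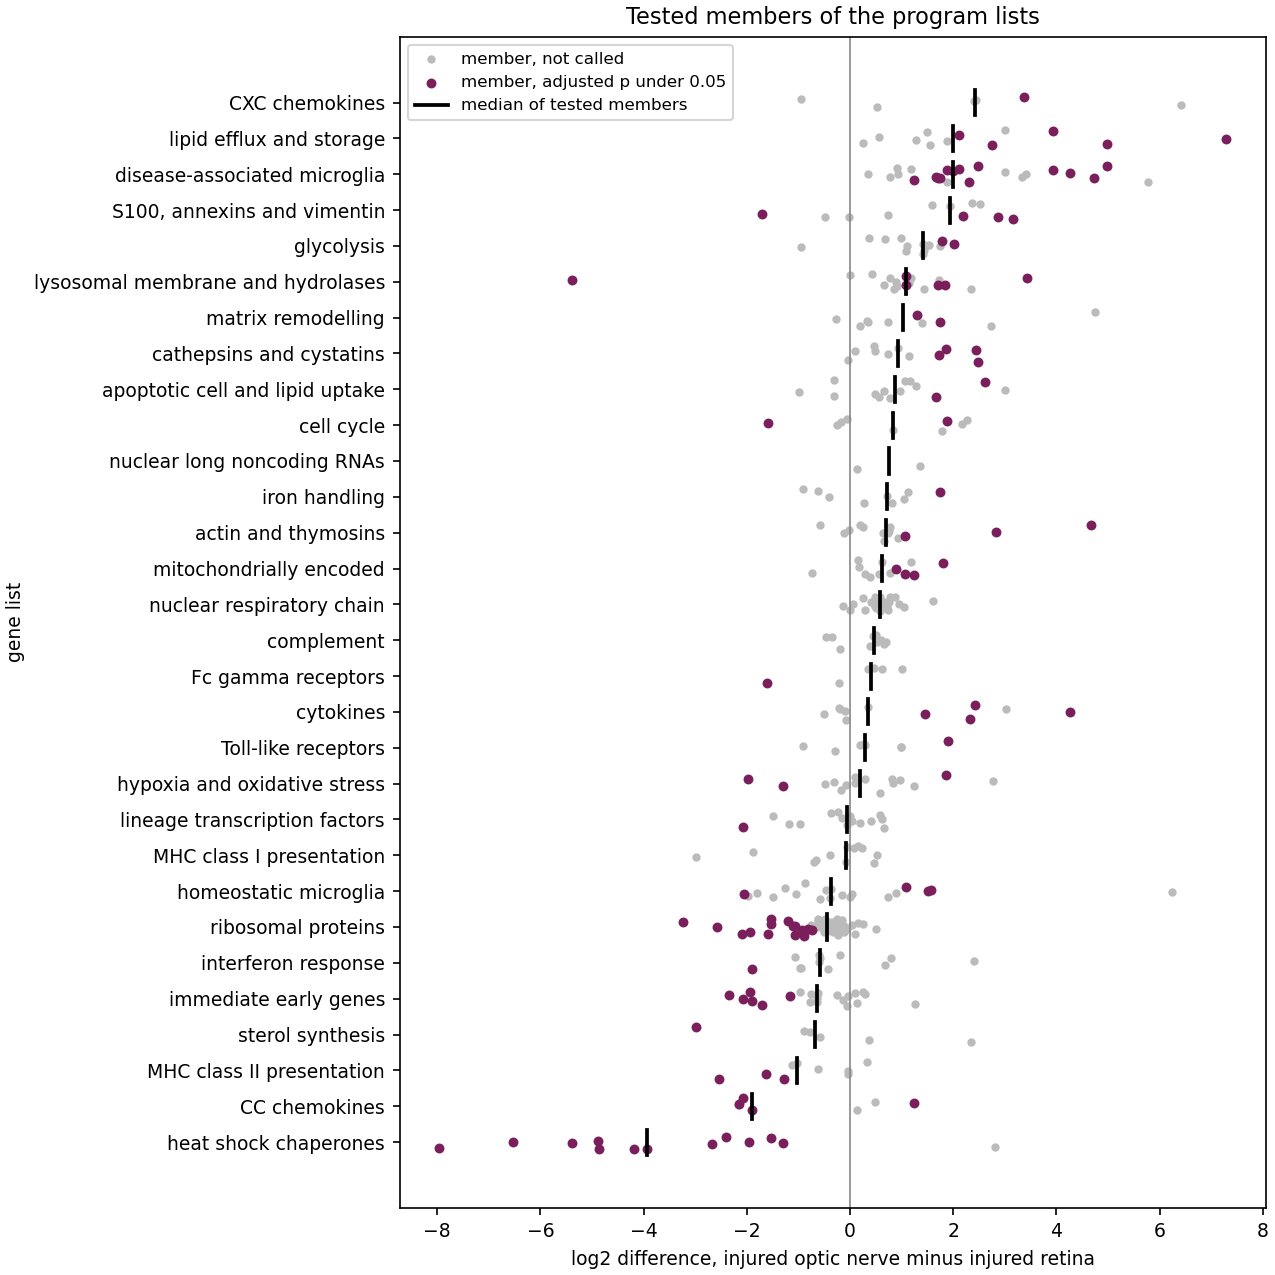
Log2 differences, injured optic nerve minus injured retina, of the tested members of 30 gene lists, ordered by their median (black line). Purple points have an adjusted p under 0.05, grey points do not. Heat shock chaperones lie lowest, with a median of -3.93, and the disease-associated microglia and lipid lists stand near 2.

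Markers of other cell types followed the cell classes only in part. The T cell receptor genes Cd3d and Cd3g held 0 and 0 UMIs in nerve library 1, 1 each in library 3, 72 and 35 in retina pool 1+2 and 29 and 15 in pool 3+4, and with Cd8b1 and Cd28 4 of 6 tested T and NK cell markers were called lower in nerve. Mbp, the myelin basic protein, stood at 2515 and 637 CPM in nerve and 38.8 and 62.4 in retina (log2 difference 4.57, SE 0.61, adjusted p = 0.011) and was still called without the non-myeloid classes (difference 4.23, adjusted p = 0.024). Of 5 tested oligodendrocyte markers 2 were called higher (Mbp and Trf, the latter with an adjusted p of 0.056 without the non-myeloid classes). The border macrophage list had 1 of 5 called higher (Gas6). Its summed level was 992 and 710.3 CPM in nerve against 99.1 and 115 in retina. Among monocyte markers 2 of 5 were called lower (Ly6c2 and Ms4a4c). The summed level of that list overlapped between the tissues, at 195 and 1162 CPM in nerve and 530.1 and 430.1 in retina. Of 13 microglia markers 3 were called higher (Trem2 and Olfml3 among them) and 0 lower. Of the other lists, astrocyte markers had 1 of 2 tested called higher, endothelial markers 2 of 4 and Muller glia markers 2 of 5 (Apoe and Dbi). Without the non-myeloid classes, 2 endothelial markers were called higher as well. Bipolar cell (Prkca, 1 of 1), dendritic cell (Ccr7, 1 of 3) and retinal ganglion cell markers (Thy1, 1 of 2) had 1 gene called lower. Without the non-myeloid classes, 0 dendritic cell and 0 retinal ganglion cell markers were called lower, while 1 bipolar cell and 1 monocyte marker were. A gene too low to test there counts as not called.

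Whether the tissue difference itself changed with injury was asked with an interaction: the nerve-minus-retina difference in injured libraries minus the same difference in uninjured libraries, over all 8 libraries and the genes with a UMI in each of the 4 groups. Of 5323 genes tested, 71 (1.33%) were called, 40 with a more positive difference in injured tissue (0.751%) and 31 with a more negative one (0.582%), and 736 had an unadjusted p under 0.05. The median interaction over all tested genes was -0.08. The uninjured libraries were small (103 and 28 cells in nerve, 31 and 12 in retina). Oligodendrocyte-like cells made up 23.3% of uninjured nerve library 2 and 14.3% of library 4, and without the non-myeloid classes 51 of 4409 genes were called, 46 of them among the 71. Border macrophage-like cells made up 44.7% and 3.57% of these libraries, and their part in the interaction was not tested. All UMIs of uninjured retina lay in the first block of the table's gene rows, so that gene rows differed there too.

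Hspa1b and Hspa1a had the most negative interactions of all genes tested. Hspa1b differed by -8.04 between injured tissues and by 0.99 between uninjured ones, an interaction of -9.04 (SE 0.70, adjusted p = 7.7e-05), and Hspa1a had an interaction of -7.13 (SE 0.57, adjusted p = 7.7e-05). In CPM, Hspa1b was at 1581 and 976 in uninjured nerve and 875 and 396 in uninjured retina, above both injured nerve libraries and below both injured retina pools. Of 13 tested members 6 were called, all more negative in injured tissue, with a median interaction of -2.42: Hspa1b, Hspa1a, Hsph1 (-4.37), Bag3 (-4.29), Hsp90aa1 (-3.19) and Hsp90ab1 (-1.86). Dnajb1 (-2.42, adjusted p = 0.070) was not called.

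Some microglial and lysosomal genes went the other way. Trem2 was lower in nerve than in retina without injury (-1.86) and higher after it (1.52), an interaction of 3.38 (SE 0.44, adjusted p = 0.0029). Cd9 had an interaction of 3.77 (SE 0.45, adjusted p = 0.0016). Its levels were 584 and 1260.2 CPM in uninjured nerve, 2398 and 3638 in uninjured retina, 1907 and 2426 in injured nerve and 675 and 575 in injured retina, so that nerve was high after injury and retina was high without it. Olfml3 (4.29, SE 0.44, adjusted p = 0.00064) showed the same change of sign. The microglial receptor Gpr34 had an interaction of 3.36 (SE 0.40, adjusted p = 0.0016), from -2.49 without injury to 0.87 after it, a value that did not pass on its own (adjusted p = 0.051). With Lpl (4.53) and Tyrobp (2.75), 4 of 21 tested disease-associated genes were called more positive and 0 more negative (median 2.2). Of 11 cathepsins and cystatins 3 were called more positive (Ctsd 3.73, Ctsz 2.86 and Cst3 1.74), and of 19 lysosomal membrane proteins and hydrolases 1 was (Hexa, 3.78). For Apoe the interaction was 1.53 (adjusted p = 0.36), and for Igf1 3.08 (adjusted p = 0.47), and neither was called.

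Ribosomal proteins had 16 of 60 members called more negative in injured tissue (median -0.93), among them Rps15 (-3.98), Rpl23a (-3.67) and Rpl17 (-3.57). Rps15 stood at 206 and 144 CPM in uninjured retina, 2466 and 2022 in injured retina and between 457 and 897 in the 4 nerve libraries. The injured and uninjured retina libraries thus lay further apart than the nerve libraries did. Injury and the gene rows of uninjured retina cannot be told apart there. None of the 22 immediate early genes, 8 MHC class II genes or 7 CC chemokines tested was called, although the median interaction of the MHC class II genes was -2.59. The 10 genes named by smallest adjusted p stayed called with edgeR, DESeq2 and without the non-myeloid classes. Leaving out retina pool 1+2 or uninjured retina library 5 ended the call of Taf6l, a transcription factor subunit with 4 and 3 UMIs in the injured retina pools (interaction 5.83, adjusted p = 0.12 and 0.058).

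**Figure D5:**
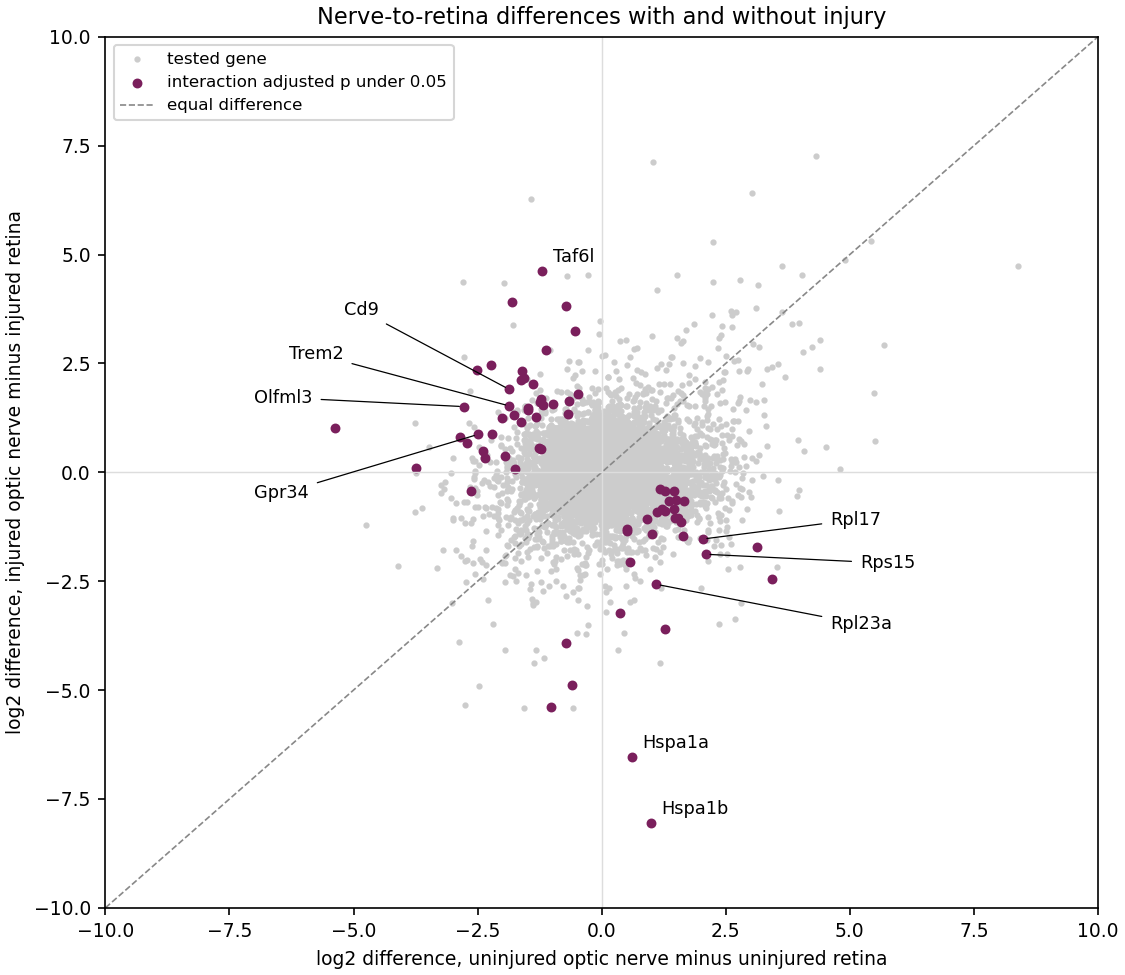
Log2 difference between nerve and retina without injury (x axis) and after injury (y axis) for 5323 genes. Purple points have an interaction adjusted p under 0.05, and the dashed line marks equal differences. Hspa1b and Hspa1a lie far below the line, and Trem2, Cd9, Olfml3 and Gpr34 lie above it with a negative difference without injury and a positive one after it, which for Gpr34 did not pass the test.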

How the data were processed

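Single-cell RNA was captured with 10x Genomics v2 chemistry. Per the submitters' processing notes and the series design, bcl2fastq 2.17.1.14, Cell Ranger 1.3 (mm10) and Seurat 4.0.3 were used, and cells were filtered by number of genes. Retina values are UMI counts as deposited. Optic nerve values were deposited by the authors as natural log, ln(1 + 10000 x UMI / cell total), and UMI counts were recovered from them: all 1374534 values above 0 came out whole within 0.01.

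UMIs were summed over all cells of a library, and limma-voom (limma 3.58.1, edgeR 4.0.16 for TMM factors and filterByExpr, R 4.3.3) was fitted over all genes with Benjamini-Hochberg adjustment at 0.05. The gene list counts have no test of their own. Cell classes came from Leiden clusters (scanpy 1.11.5, resolution 0.5, Python 3.11.15) and marker lists, with exact Clopper-Pearson 95% intervals and the exact permutation test over libraries (scipy 1.17.1). Doublets were not called. Sequences come from RefSeq (GRCm38.p6), and exon sharing and gene positions from GENCODE M21.

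Named genes are the 12 with the smallest adjusted p in each direction with a mean log2 CPM of at least 5, leaving out unnamed models and markers of other cell types, up to 4 members with the smallest p of each list, and up to 5 for the interaction in each direction. Other named genes were chosen after their values were seen, and some genes the rule picks are not reported here. The members and lists were chosen with earlier results of these data known. Genes with 1 to 3 UMIs in a tissue are given as UMIs.

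Alternatives were edgeR, DESeq2 1.42.0, size factors, no low-count filter, all 8 libraries, the mean ln value, thinned cells, other cell or gene sets, a replicate block and each library left out. The fits were tested on simulated data, where the share of unchanged genes among the calls exceeded the nominal 0.05 in the run kept. It was 19.1% for the nerve-to-retina fit and 6.86% for the interaction fit.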

Additional observations from a re-analysis of the deposited data

Results flagged for a closer look

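The tissue difference changed with injury for 71 genes, by the interaction test in limma-voom over 8 libraries, and for each gene named here the test of that change itself passed. The nerve-to-retina log2 difference was more positive in injured than in uninjured tissue for Taf6l (5.83), Olfml3 (4.29), Cd9 (3.77), Trem2 (3.38) and Gpr34 (3.36). It was more negative for Hspa1b (-9.04), Hspa1a (-7.13), Rps15 (-3.98), Rpl23a (-3.67) and Rpl17 (-3.57). The uninjured retina libraries hold 31 and 12 cells. All their UMIs lay in the first block of gene rows, so that injury and gene rows cannot be told apart in retina. Rpl23a also shares exons with another gene.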

How the results depend on the processing

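Nerve-to-retina calls numbered 536 (29.9% of them higher in nerve), 310 with DESeq2 (46.8% higher), 835 with all 8 libraries, 115 of 1392 genes with thinned cells and 1402 on mean ln values (4.56% higher). With edgeR there were 431 (46.2% higher, 343 of them among the 536). Among called genes named above, 62 were tested with thinned cells. Of these, 35 kept the call, 27 lost it and 0 changed sign. Those that lost it included Il1b, Tgfb1, Tnfsf9, Igf1, Lpl, Lyz2, Cxcl14, Ccl3, Plin2 and Ctsb. Leaving out 1 library gave 53 to 2708 calls, with 4.31% to 71.5% higher in nerve, and without nerve library 3, 3 of the 536 genes had the opposite sign, as 5 had on mean ln values. The library numbers gave the only pairing, and the deviations of nerve library 1 and retina pool 1+2 correlated at -0.09. With that replicate block 727 genes (50.6% higher) were called. No paired analysis was possible for the interaction because its uninjured groups share no numbers. The interaction gave 71 calls, 110 with DESeq2 and 25 to 379 with 1 library left out, and 51 both without the non-myeloid classes and without exon-sharing genes. Leaving out exon-sharing genes, or border macrophage-like cells too, was chosen after seeing the data; these gave 432 and 690 nerve-to-retina calls. Class shares kept their direction in every alternative run. With 2 libraries a tissue, and 310892 UMIs in the shallowest, low genes were tested with little precision.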
